A study of Mus musculus with 6 samples.

Results

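The genes described here are 40 genes of glycolysis and of the transcriptional response to low oxygen. They were listed by symbol with the values of these arrays known, including the difference between the siRNAs, so what follows describes them and is no independent evidence of a direction. They were drawn from 18193 genes that had a probe set naming a single gene. Each was read from its brightest such probe set, the one with the highest mean signal over all 6 arrays, so brightness chose the readings and is no result. Of the 40 genes, 37 had such a probe set, and 36 were bright enough to be tested. The filter left out the dimmest 40% of probe sets by their mean over all 6 arrays, without regard to group. Hk2, the hexokinase of growing and cancer cells, stayed under it with signals from 23.9 to 58.2. The dimmest member tested was Ppp1r3c, with signals from 12.5 to 147.4, which passed the filter through the arrays where it is high. Gpi1, the glucose-6-phosphate isomerase, and Eno1, the common enolase, matched no single-gene probe set in the annotation used, and Gapdh matched only control probe sets.

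The cells were MIN6, an insulin-producing line from a mouse beta cell tumour. They had been electroporated with 100 pmol of a control siRNA or with one that targets TDP-43, an RNA-binding protein encoded by Tardbp. The pulse was 1200 V for 20 ms in both groups. Each siRNA was measured on 3 arrays, called control replicates 1 to 3 and TDP-43 siRNA replicates 1 to 3 here. The labels give one text on culture, seeding and electroporation for all 6 arrays, with no separate cultures named for the replicates, so p-values measure the spread between these samples, which may be technical. The siRNA sequences and the time between electroporation and harvest are not given in the sources used here, and effects of the siRNA on other transcripts cannot be told apart from those of lower TDP-43.

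Glycolysis turns glucose into pyruvate through a chain of cytosolic enzymes, and lactate dehydrogenase can then turn pyruvate into lactate, which leaves the cell through monocarboxylate transporters. In low oxygen the prolyl hydroxylases of the Egln family no longer mark the alpha subunit of the hypoxia-inducible factor HIF for destruction, and HIF then raises glucose uptake, glycolytic enzymes, mitophagy factors and its own hydroxylases. Mature beta cells send nearly all pyruvate into mitochondria and keep lactate dehydrogenase A and monocarboxylate export low, which ties insulin release to glucose.

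The siRNA lowered its target on every array that received it. Tardbp read 3748, 3940 and 3699 in control replicates 1 to 3 and 2257, 2249 and 1836 after TDP-43 siRNA (log2 difference -0.85, SE 0.08, n = 3 per group, limma adjusted p = 0.00187). Control replicate 3 differed from the mean of the other controls by -0.05 on the log2 scale for Tardbp. Arrays correlated between 0.985 and 0.991 over the log2 values of the 12619 genes tested. Of 10 beta cell markers 8 were tested, and their summed signal ran from 90251 to 95214 on control arrays and from 88118 to 97513 on the others. Genes of other pancreatic cells were not all low: the alpha cell hormone gene Gcg averaged 9264 and 8165 in the control and TDP-43 siRNA groups, and the duct keratin Krt7 averaged 5648 and 5287. The summed signal of 4 tested markers of fibroblasts, endothelial and immune cells was 232 to 286 on control arrays and 201 to 262 after TDP-43 siRNA. The other 6 of that list (Col1a1, Col3a1, Pdgfra, Pecam1, Cdh5 and Ptprc) were not tested.

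Within the control group the members split the arrays, and control replicate 3 stood apart. In 31 of 36 members (86.1%) control replicates 1 and 2 were the lowest of all 6 arrays, an order found in 14.1% of the 12619 genes. Control replicate 3 exceeded the mean of control replicates 1 and 2 by over 0.5 (log2) in 25 members (69.4%), against 3.52% of all genes, and lay below it by that much in 0 members (2.74% of all genes). Among the other arrays, TDP-43 siRNA replicate 3 exceeded its group by that much in 2 members (2.81% of all genes), and TDP-43 siRNA replicates 1 and 2 in 0 (3.63% and 1.28%). Control replicates 1 and 2 lay below the other arrays of their group by over 0.5 in 12 and 8 members (4.64% and 1.8% of all genes), which includes the height of control replicate 3. The median difference of control replicate 3 from the other controls was 0.84 over the members and 0.01 over all genes, with members from -0.21 for Ldhb to 2.67 for Ppp1r3c. In RNA from whole cultures, fewer cells that make a transcript and less of it per cell cannot be told apart. The TDP-43 siRNA arrays stayed close together: the median range among the 3 arrays was 0.19 over the members against 0.21 over all genes, while among the controls it was 0.89 against 0.23. A range over 0.5 was seen in 26 members among the controls (15.8% of all genes) and in 4 among the TDP-43 siRNA arrays (13.6%). Control replicate 3 lay nearer to the TDP-43 siRNA mean than to the other controls in 34 members (94.4%; 54.0% of all genes), the exceptions being Slc16a1 and Pfkfb2. A single array has no replicate, so no test was made of this difference. The Gapdh signal of the 3′ control probe set minus the 5′ one, a check of RNA integrity, was -0.40 (log2) on control replicate 3 and between -0.40 and -0.36 on the others. The same check on beta-actin gave 0.40 on control replicate 3 and between 0.33 and 0.41 on the others. What set the array apart was not tested.

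**Figure D1:**
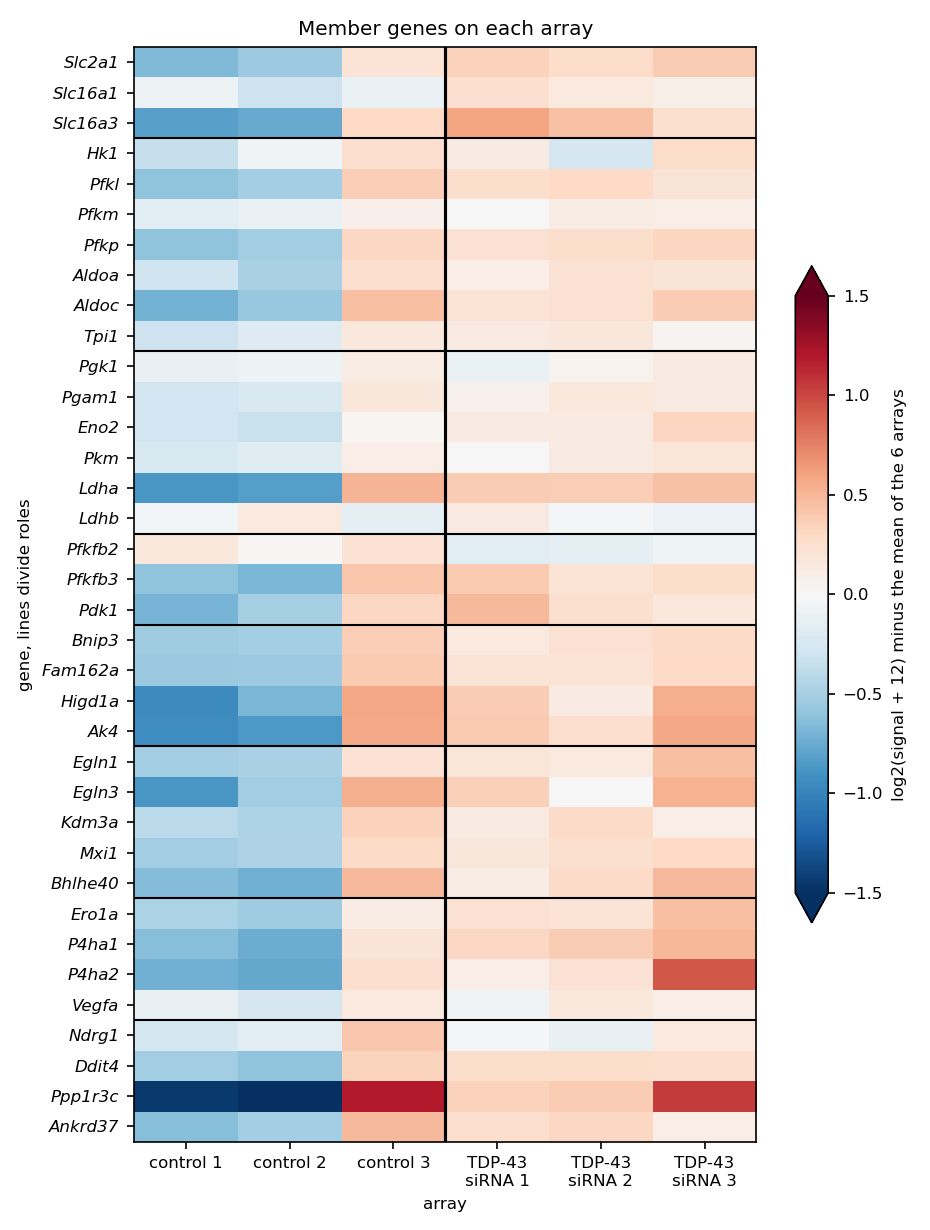
Heat map of the 36 tested members (rows, grouped by role from transporters at the top to other hypoxia genes at the bottom) on the 6 arrays (columns), coloured by log2(signal + 12) minus the gene's mean over the 6 arrays. Control 1 and control 2 are blue and control 3 is red like the TDP-43 siRNA arrays for most genes, with Slc16a1, Ldhb and Pfkfb2 as visible exceptions.

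**Figure D2:**
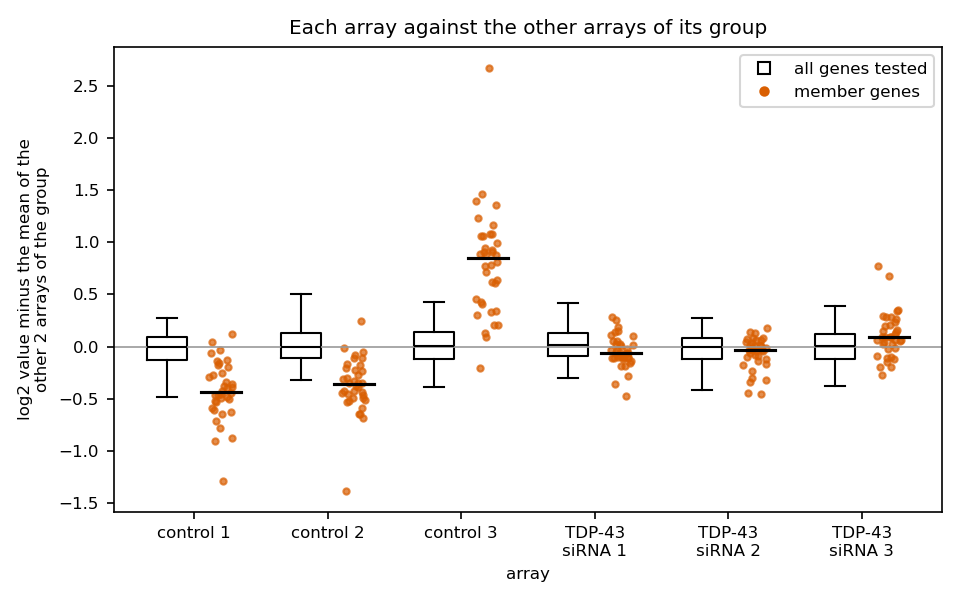
Each array's log2 value minus the mean of the other 2 arrays of its group, as a box for all 12619 genes (median, quartiles, whiskers at the 5th and 95th percentiles) and as points for the 36 members with their median as a bar. The members' median is 0.84 for control 3, -0.44 for control 1 and -0.36 for control 2, and between -0.06 and 0.09 for the TDP-43 siRNA arrays; the control values depend on one another, since each array is also part of the others' comparison.

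Promoters were examined because the members moved together between arrays and many are textbook targets of HIF. The core of the hypoxia response element is ACGTG or GCGTG, read on both strands. ACGTG is also part of the E-box CACGTG, which MYC, MXI1 and BHLHE40 bind. RefSeq start sites of the mouse build GRCm38.p6 were given for 38 of the 40 members, with 250 bases searched before each start. ACGTG occurred before at least 1 start of 25 members (65.8%), against 25.1% of 10230 tested genes and 18.5% of all 27025 genes in the table. Outside an E-box it occurred in 22 members (57.9%; 17.1% of tested genes). Members have more listed starts than other genes, and counted by start it was 30 of 61 (49.2%) against 21.5% of 13129. GCGTG was found in 28 members (73.7%; 49.8% of tested genes), and CACGTG in 8 (21.1%; 9.82%). Neither ACGTG nor GCGTG was found before any start of Eno2, Tpi1 or Gpi1. Known HIF targets were listed on purpose, so these shares describe the list. A match in letters is not a bound site.

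Upstream stretches of 6 members are printed 5′ to 3′ on the gene's strand, with every ACGTG and GCGTG on either strand in capitals (CACGT and CACGC when read on the other strand). They were picked with their values and motifs in view, as 5 members in which control replicate 3 exceeded the other controls by 0.89 or more and, for contrast, Ldhb, in which it did not. They lie at chr7:46845554-46845803, plus strand for Ldha, chr7:138909507-138909756, minus strand for Bnip3, chr11:120948817-120949066, plus strand for Slc16a3, chr19:36736605-36736854, minus strand for Ppp1r3c, chr8:45999851-46000100, minus strand for Ankrd37 and chr6:142507958-142508207, minus strand for Ldhb. The Ldha stretch holds ACGTG in 3 places, 2 of them E-boxes.
Ldha: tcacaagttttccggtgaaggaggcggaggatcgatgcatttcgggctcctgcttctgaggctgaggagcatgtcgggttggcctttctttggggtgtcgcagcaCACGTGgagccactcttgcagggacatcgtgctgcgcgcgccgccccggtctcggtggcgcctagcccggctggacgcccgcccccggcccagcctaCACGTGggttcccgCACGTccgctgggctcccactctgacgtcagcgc
Bnip3: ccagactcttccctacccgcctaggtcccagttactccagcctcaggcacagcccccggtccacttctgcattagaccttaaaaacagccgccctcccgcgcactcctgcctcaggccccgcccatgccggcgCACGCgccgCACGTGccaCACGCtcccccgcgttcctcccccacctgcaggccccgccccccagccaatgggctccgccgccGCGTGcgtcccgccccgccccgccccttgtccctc
Slc16a3: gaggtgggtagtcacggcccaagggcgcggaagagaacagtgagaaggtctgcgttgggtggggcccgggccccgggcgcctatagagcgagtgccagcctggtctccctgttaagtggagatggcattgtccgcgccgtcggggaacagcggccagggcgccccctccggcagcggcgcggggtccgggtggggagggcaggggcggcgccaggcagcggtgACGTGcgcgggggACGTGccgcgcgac
Ppp1r3c: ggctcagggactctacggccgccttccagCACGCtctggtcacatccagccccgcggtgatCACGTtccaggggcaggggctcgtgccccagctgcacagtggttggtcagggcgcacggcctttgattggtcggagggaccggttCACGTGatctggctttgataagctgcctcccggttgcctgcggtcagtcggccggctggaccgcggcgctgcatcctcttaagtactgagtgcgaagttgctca
Ankrd37: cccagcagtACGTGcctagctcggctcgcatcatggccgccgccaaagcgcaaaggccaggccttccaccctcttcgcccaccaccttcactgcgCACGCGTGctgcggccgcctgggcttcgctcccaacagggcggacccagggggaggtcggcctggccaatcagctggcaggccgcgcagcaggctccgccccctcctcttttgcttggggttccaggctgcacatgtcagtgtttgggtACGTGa
Ldhb: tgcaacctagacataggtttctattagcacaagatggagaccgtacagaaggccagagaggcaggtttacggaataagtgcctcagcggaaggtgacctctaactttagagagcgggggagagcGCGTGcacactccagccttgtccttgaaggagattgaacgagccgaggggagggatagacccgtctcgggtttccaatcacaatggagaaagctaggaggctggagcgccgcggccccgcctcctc
Slc16a3 and Ankrd37 each carry ACGTG in 2 places outside any E-box, and Bnip3 carries it once, inside an E-box. Ldhb has no ACGTG and a single GCGTG.

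With all 6 arrays, 0 of 36 members passed the limma threshold of adjusted p 0.05 in either direction, where 0.745% of all genes did (94 of 12619; 0.166% higher and 0.578% lower). At an unadjusted p under 0.05 there were 23 higher members and 1 lower one, against 6.75% and 5.87% of all genes (12.6% together). Of the 36 differences 35 lay above 0 (55.0% of all genes), with a median of 0.48 against 0.02 over all genes. The groups did not overlap in 6 members: Slc2a1, Slc16a1, Eno2, Ero1a and P4ha1 were higher on every TDP-43 siRNA array (9.98% of all genes were) and Pfkfb2 was lower (8.32%). Without control replicate 3, 28 of 36 members passed and were higher after TDP-43 siRNA, where 2.0% of all genes passed, 1.12% higher and 0.888% lower, and the members' median was 0.79. The folds of these 28 ran from 1.24 for Pkm to 4.20 for Ppp1r3c on the scale of log2(signal + 12), which understates the change of dim genes. Ppp1r3c read 13.6 and 12.5 on the controls left in this fit, under the filter mean of 41.5. It was tested only through the arrays where it is high, and its second probe set was at 0.61 (log2) there. Without control replicate 1 or 2, or any TDP-43 siRNA array, 0 members passed. The fit without control replicate 3 is quoted below because the members' own values set that array apart. For most members, leaving it out widens the difference and narrows the spread. Its p-values therefore describe the 5 arrays left and are no independent support. Which of the controls were unusual was not tested.

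**Figure D3:**
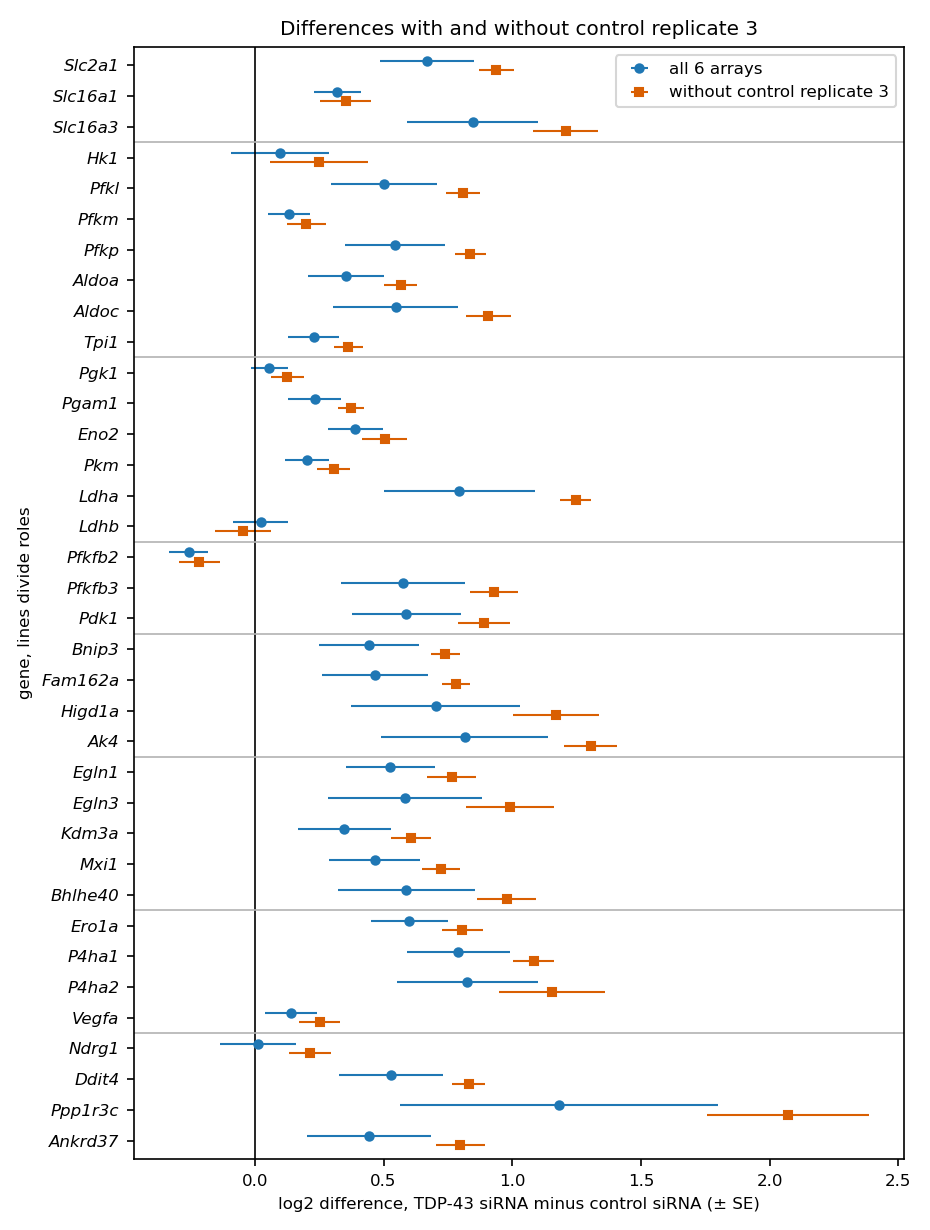
Log2 difference of TDP-43 siRNA minus control siRNA for each tested member, with the standard error of the limma fit, over all 6 arrays (circles) and without control replicate 3 (squares). For most members the squares lie further right with shorter bars, for Ldha at 1.25 (SE 0.06) against 0.79 (SE 0.29); Slc16a1, Ldhb and Pfkfb2 hardly move.

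Glucose entry and lactate export were read by 3 members. Slc2a1, the glucose transporter GLUT1, gave 1732, 1885 and 3179 on the control arrays and 3506, 3340 and 3582 after TDP-43 siRNA. All TDP-43 siRNA arrays lay above all controls, though control replicate 3 was close to them. The difference was 0.67 (SE 0.18, limma adjusted p = 0.157), and 0.94 without control replicate 3 (SE 0.07, limma adjusted p = 5.76e-04). Slc16a3, the lactate exporter MCT4 of hypoxic and glycolytic cells, gave 196, 205 and 437 in control and 540, 482 and 420 in TDP-43 siRNA arrays. The groups overlapped through control replicate 3, and the difference was 0.85 (SE 0.25, limma adjusted p = 0.189). Slc16a1, the monocarboxylate transporter MCT1 that mature beta cells keep off, behaved otherwise: its controls gave 748, 637 and 739, and the TDP-43 siRNA arrays 943, 873 and 840. Here control replicate 3 sat among the controls, and the groups did not overlap. The difference was 0.32 (SE 0.09, limma adjusted p = 0.168), and 0.35 without control replicate 3 (limma adjusted p = 0.113).

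In upper glycolysis, where glucose is phosphorylated and split, 7 of 9 members were tested and all 7 lay above 0, with a median of 0.35 over 6 arrays. Pfkl, the liver-type phosphofructokinase, gave 1879, 2013 and 3700 in control and 3458, 3524 and 3274 in TDP-43 siRNA arrays. Pfkp, the platelet-type form, gave 2820, 2992 and 5350 against 5062, 5174 and 5363. In both genes control replicate 3 reached the TDP-43 siRNA arrays, whereas Pfkm, the muscle-type form, spanned only 1181 to 1436 over all arrays. Without control replicate 3 the differences were 0.81 for Pfkl (limma adjusted p = 9.12e-04), 0.84 for Pfkp (limma adjusted p = 5.76e-04) and 0.20 for Pfkm (limma adjusted p = 0.223). Aldoc, the brain-type aldolase, read 757, 836 and 1695 in control and 1437, 1457 and 1620 in TDP-43 siRNA arrays, and it differed by 0.91 without control replicate 3. Aldoa, the common aldolase, and Tpi1, the triose phosphate isomerase, had higher signals and smaller differences, 0.57 and 0.36 in that fit, and both passed. Hk1, the hexokinase of most tissues, overlapped throughout, with 137, 171 and 215 against 195, 147 and 219.

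In the lower part of the pathway, from triose to lactate, 6 of 8 members were tested and all 6 lay above 0, with a median of 0.22. Ldha, which makes lactate from pyruvate, had the smallest adjusted p of the members once control replicate 3 was left out. It gave 1829, 1884 and 4780 in control and 4367, 4353 and 4547 in TDP-43 siRNA arrays. Control replicate 3 was the highest of all 6, and the other controls lay far below every other array. The difference of 0.79 (SE 0.29, limma adjusted p = 0.296) became 1.25 without it (SE 0.06, limma adjusted p = 9.25e-05). Ldhb, the form that favours pyruvate, gave 483, 552 and 446 against 546, 491 and 467, with a difference of 0.02 (SE 0.11). Its 95% confidence interval ran from -0.21 to 0.26. Eno2, the neuron-type enolase, gave 884, 857 and 1105 in control and 1181, 1185 and 1360 in TDP-43 siRNA arrays, without overlap, and differed by 0.39 (SE 0.11, limma adjusted p = 0.157). Pgam1, the phosphoglycerate mutase, and Pkm, the pyruvate kinase outside liver and red cells, differed by 0.23 and 0.20 over 6 arrays. Without control replicate 3 they were at 0.37 and 0.31, and both passed. Pgk1, the phosphoglycerate kinase, was at 0.06 on its brightest probe set, whose signals of 16740 to 19739 are near the top of a table that ends at 26055. Both of its other probe sets were at 0.21, and the second brightest also read high, at 20031 on control replicate 3. Why the readings differ was not tested. The Gapdh control probe sets differed by 0.07 to 0.13, and control replicate 3 exceeded the other controls by 0.21 to 0.29 on them.

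The regulators of glycolytic flux parted. Pfkfb3, the kinase that makes the activator of phosphofructokinase in growing and hypoxic cells, gave 436, 411 and 894 in control and 875, 770 and 807 in TDP-43 siRNA arrays. Pdk1, which blocks pyruvate dehydrogenase, gave 2198, 2532 and 4428 against 5002, 4210 and 3998. Both had control replicates 1 and 2 alone at the bottom, and without control replicate 3 they differed by 0.93 (SE 0.09) and 0.89 (SE 0.10). Pfkfb2, the heart and islet form of the same bifunctional kinase, went the other way, with 1568, 1423 and 1631 in control and 1247, 1265 and 1344 in TDP-43 siRNA arrays. Every TDP-43 siRNA array lay below every control and control replicate 3 was the highest control. The difference was -0.26 (SE 0.08, limma adjusted p = 0.181). Its other probe sets were at -0.37, -0.13 and 0.31, so the readings of this gene differ in sign.

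**Figure D4:**
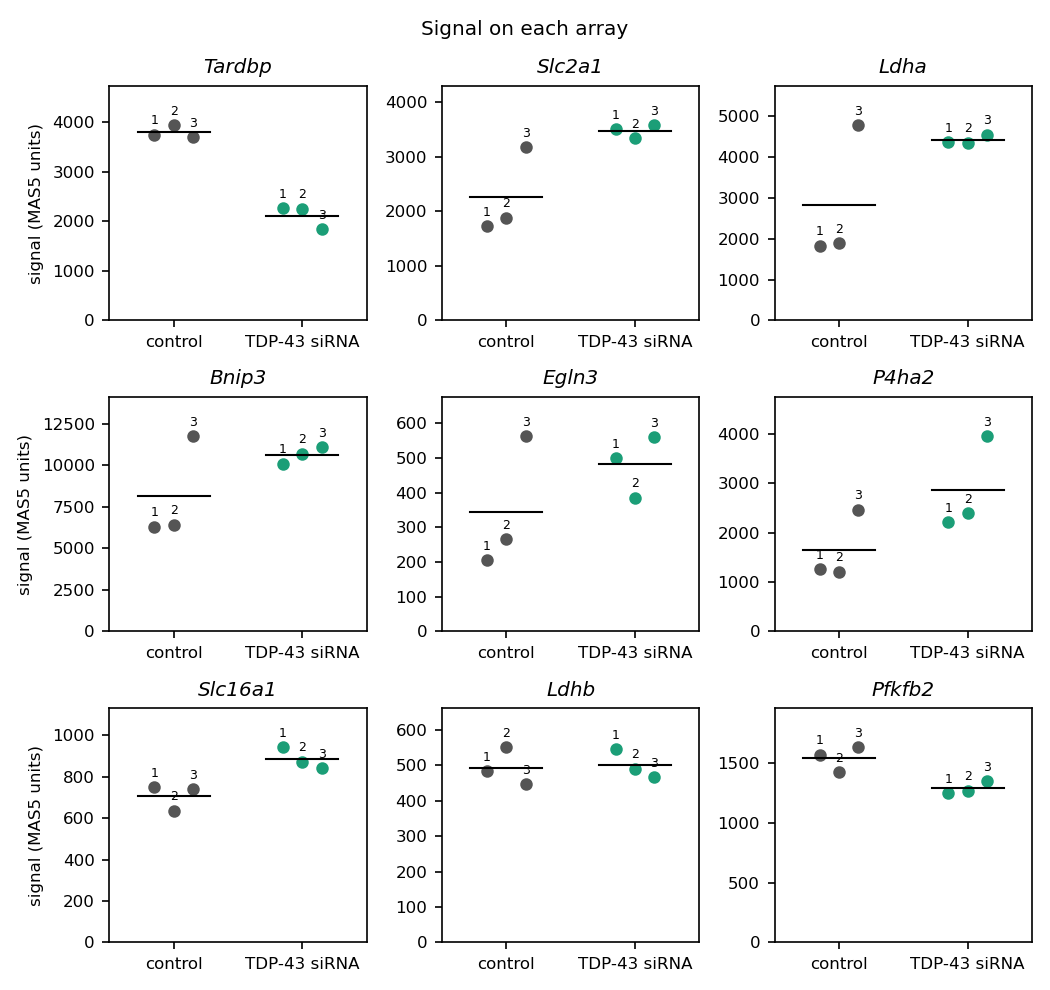
Signal on each array (MAS5 units, axis from 0) for Tardbp and 8 members, with arrays numbered by replicate and the group mean as a bar. Control 3 lies with the TDP-43 siRNA arrays for Slc2a1, Ldha, Bnip3, Egln3 and P4ha2 and with the other controls for Tardbp, Slc16a1 and Pfkfb2. For Ldhb it is the lowest of all 6 arrays, and the groups overlap.

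The 4 mitochondrial genes of the hypoxia response all had control replicates 1 and 2 as the lowest arrays. Bnip3, a mitophagy receptor, gave 6297, 6416 and 11758 in control and 10102, 10698 and 11085 in TDP-43 siRNA arrays. Fam162a, a small mitochondrial protein induced by HIF, gave 5115, 5159 and 9913 against 8643, 8677 and 9224. Ak4, the adenylate kinase of the mitochondrial matrix, gave 645, 674 and 1843 against 1622, 1476 and 1861. In Bnip3 and Fam162a control replicate 3 was the highest array, and in Ak4 it was level with the highest. Higd1a, a respiratory chain factor induced by hypoxia, gave 106, 130 and 330 against 287, 237 and 321. All 4 genes passed without control replicate 3, at 0.74, 0.78, 1.30 and 1.17 in this order, and control replicate 3 exceeded the other controls by a median of 1.17. With all arrays their differences of 0.44, 0.47, 0.82 and 0.70 did not pass.

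Among the oxygen sensors, Egln1, the main HIF prolyl hydroxylase, gave 1622, 1664 and 2704 in control and 2647, 2588 and 3197 in TDP-43 siRNA arrays. Egln3, the hydroxylase that HIF itself induces most, gave 205, 265 and 563 against 499, 385 and 560. Both followed the common order, and without control replicate 3 they differed by 0.76 (limma adjusted p = 0.00541) and 0.99 (limma adjusted p = 0.0244). Kdm3a, a histone H3K9 demethylase induced by HIF, gave 1773, 1689 and 2987 against 2573, 2870 and 2501. Bhlhe40, an E-box repressor and clock gene, gave 575, 544 and 1273 against 976, 1109 and 1277, and Mxi1, an antagonist of MYC, gave 1022, 1062 and 1786 against 1647, 1734 and 1802. All 5 genes of this set passed without control replicate 3, and none with all arrays.

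Of the 4 genes of the secretory pathway, collagen and vessel growth, Ero1a and P4ha1 had groups that did not overlap, and P4ha2 and Vegfa had groups that did. Ero1a, which oxidises protein disulfide isomerase in the endoplasmic reticulum, gave 3148, 3035 and 4755 in control and 5171, 5086 and 6035 in TDP-43 siRNA arrays. P4ha1, a catalytic subunit of collagen prolyl hydroxylase, gave 1313, 1218 and 2334 against 2531, 2669 and 2891. In both, control replicate 3 lay above the other controls and below every TDP-43 siRNA array. Ero1a had the smallest adjusted p of the members over 6 arrays (0.60, SE 0.15, limma adjusted p = 0.119), and P4ha1 followed (0.79, SE 0.20, limma adjusted p = 0.121). P4ha2, the second such subunit, gave 1255, 1212 and 2462 against 2215, 2399 and 3956, so that TDP-43 siRNA replicate 3 exceeded the other TDP-43 siRNA arrays by 0.78. Vegfa, the angiogenic growth factor, gave 3103, 2804 and 3718 against 3227, 3738 and 3595, and it did not pass in either fit (0.14 and 0.25).

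Of the remaining hypoxia genes, Ddit4, an inhibitor of mTORC1 signalling, gave 1442, 1363 and 2637 in control and 2508, 2510 and 2491 in TDP-43 siRNA arrays. Ankrd37, a HIF target of little-known function, gave 550, 604 and 1217 against 1036, 1080 and 925. Both had control replicate 3 as their highest array. Ppp1r3c, which targets a phosphatase to glycogen, gave 14, 12 and 147 against 77, 79 and 132, and had the largest difference of the members (1.18, SE 0.62, limma adjusted p = 0.468). At such low signals its size depends on the value added before log2: with 1 in place of 12 the difference was 1.61, and its second probe set was at 0.46. Ndrg1, a stress and differentiation gene, was 3088, 3311 and 4883 in control against 3657, 3422 and 4080. Here control replicate 3 was the highest array, and every TDP-43 siRNA array lay between it and the other controls. The difference was 0.01 (SE 0.15), and 0.21 without control replicate 3 (limma adjusted p = 0.226).

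Probe sets that the brightness rule had not chosen read the same RNA a second time. There were 39 of them after the filter, for 21 members. Of these, 36 had the sign of the brightest probe set. The exceptions were the second probe set of Fam162a at -0.09, with signals from 16.1 to 85.0, one of Ndrg1 at -0.03 and one of Pfkfb2 at 0.31. On 24 of the 39 control replicate 3 exceeded the other controls by over 0.5 (3.52% of all genes on their brightest probe sets). As with the brightest ones, 0 of the 39 passed over all 23433 probe sets with 6 arrays (0.649% of all did). An unadjusted limma p under 0.05 was found for 14 (12.6% of all genes on their brightest probe sets). For Ak4 the others were at 1.02 and 0.76, and for Pdk1 the other 3 lay between 0.41 and 0.70. For Ndrg1 the other 4 lay between -0.03 and 0.06.

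Genes next to these pathways were read from 8 further lists, with 126 of 153 genes tested. With 6 arrays 0 of the 126 passed in limma (0.745% of all genes did), and 20 had an unadjusted p under 0.05 (12.6% of all genes). Without control replicate 3, 7 were higher and 0 lower (1.12% and 0.888% of all genes). The list of HIF pathway components held none of these. It leaves out the members Egln1 and Egln3, which passed without control replicate 3, and its Epas1 was not tested. Of its 16 tested genes 0 passed with 6 arrays (0.745% of all genes did) or without control replicate 3 (2.0%). Their median difference was 0.04 over 6 arrays. At those shares a count of 0 is no result about these 16 genes. Control replicate 3 was within 0.5 of the other controls in each, with a median of 0.07. Vhl came nearest to that limit, at 0.49, followed by Arnt at 0.39. Eloc of the VHL ubiquitin ligase was at -0.11, Hif1an, the asparagine hydroxylase that restrains HIF, at 0.15, Cited2, a competitor for its coactivator, at 0.15, and Siah2, a ubiquitin ligase for the Egln enzymes, at 0.13. Levels of these transcripts do not measure HIF protein.

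Of 25 other reported HIF targets tested, 4 passed without control replicate 3 (2.0% of all genes did), namely Kdm4b, Stc1, Mif and Plod2. Control replicates 1 and 2 were the lowest arrays in 15 of the 25 (14.1% of all genes). Stc1, the hormone stanniocalcin, gave 507, 469 and 1164 in control and 1005, 990 and 1161 in TDP-43 siRNA arrays. Kdm4b, a histone demethylase, differed in that control replicate 3 stayed with the controls: it gave 194, 232 and 244 against 359, 309 and 360, and its difference of 0.59 (SE 0.12, limma adjusted p = 0.0670) had the smallest adjusted p of the 126 genes. Hmox1, the heme oxygenase, was at 0.47 and Narf at 0.37, both also without overlap between the groups. Pfkfb4 at 0.21 and Bhlhe41 at 0.19 did not overlap either. Over all genes 9.98% were higher on every TDP-43 siRNA array than on every control. Slc2a3, the neuron-type glucose transporter, went the other way in control replicate 3, at -0.68 from the mean of the other controls.

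Control replicate 3 exceeded the other controls by over 0.5 in 9 of these 25 genes and, in the list of glycogen metabolism, in 6 of 17, against 3.52% of all genes. Pgm1, the phosphoglucomutase between glucose 6-phosphate and glycogen, gave 1857, 1712 and 2910 in control and 2757, 2799 and 2863 in TDP-43 siRNA arrays. Stbd1, a glycogen-binding protein, gave 466, 420 and 765 against 721, 613 and 906. Both passed without control replicate 3, at 0.65 and 0.72, whereas the phosphatase subunits Ppp1r3d at 0.29 and Ppp1r3e at 0.32 over 6 arrays passed in neither fit.

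The remaining metabolic lists stayed near 0 over 6 arrays. For the 12 other glycolytic isoenzymes the median was 0.10, with Tigar at 0.21, Minpp1 at 0.12, Bsg, the chaperone of the lactate transporters, at 0.14 and Bpgm at 0.13. For 9 pentose phosphate genes it was -0.04, with the transketolase Tkt at 0.22 (0.27 without control replicate 3, limma adjusted p = 0.0444), Rpe at 0.19, H6pd at 0.28 and Pgd at -0.23. For 28 genes of pyruvate entry and the citric acid cycle it was 0.00, with the fumarase Fh1 at -0.18, Sdhb at -0.15, Pdp1 at 0.24 and Pdhb at -0.14. For 12 genes of the glucose-sensing factors ChREBP and MondoA it was -0.07, with Mlx at -0.21, Fasn at -0.23, Mlxipl at 0.22 and the glucose-induced Txnip at -0.15. For 7 shuttle genes it was 0.04, with Gpd1l at 0.25, Slc25a1 at 0.13, Got1 at 0.10 and Slc25a11 at -0.04. In these 5 lists control replicate 3 exceeded the other controls by over 0.5 in 0 genes.

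**Figure D5:**
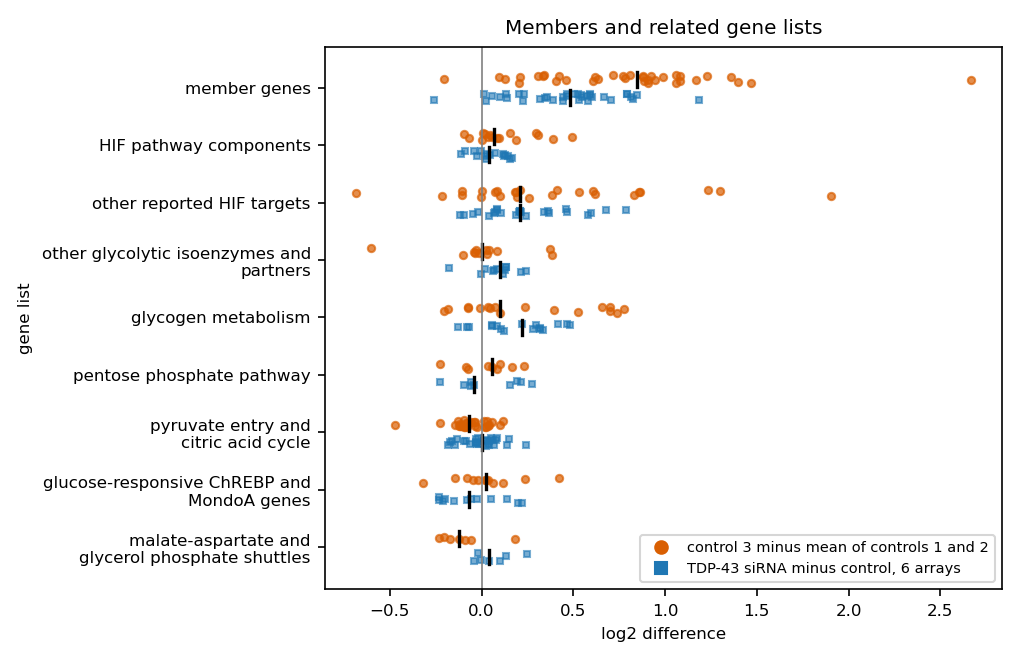
Log2 differences for the members and 8 related lists, as control 3 minus the mean of controls 1 and 2 (circles) and as TDP-43 siRNA minus control over 6 arrays (squares), with the median of each as a bar. Both medians are highest for the members (0.84 and 0.48), which include Egln1 and Egln3. Those of the list of HIF pathway components, which leaves these genes out, lie near 0 (0.07 and 0.04).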

How the data were processed

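Total RNA of 6 MIN6 samples was labelled from 100 ng and hybridised to Affymetrix mouse 3' expression arrays, 1 array per sample. The authors deposited MAS5 signal intensity on a linear scale, per the submitters' processing notes, for 45101 probe sets; no version of it is named in these sources. The trimmed mean without the highest and lowest 2% was 500.003 on every array and median signals lay between 72.3 and 79.97, so any change common to all genes would be scaled away. The number of arrays limits the precision. GEO's platform table gave gene names: 1 gene for 34945 probe sets, several for 932 and none for 9160, beside 64 controls. Symbols were updated through Entrez numbers with the RefSeq table of GRCm38.p6 (34741 matched).

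The value 12 (20th percentile of the table) was added before log2. The dimmest 40% of probe sets (mean signal under 41.5) were left out, and the brightest probe set of each gene gave 12619 genes. The groups' difference came from a two-sided limma fit (version 3.58.1, R 4.3.3) whose moderated variance followed signal level. P-values were adjusted over all genes by Benjamini-Hochberg, and 0.05 was the threshold; the steps were tested on simulated data. Figures used matplotlib 3.10.9. The members and lists were chosen with earlier results of these data known. Every tested member is named, and of each related list the 4 genes with the smallest p. Mif, Plod2, Slc2a3, Pfkfb4, Bhlhe41, Vhl and Arnt were named after their values were seen. Alternatives were other pseudocounts, filters, scalings, variance models, gene summaries, a replicate block and each array left out.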

Additional observations from a re-analysis of the deposited data

How the results depend on the processing

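The count of 0 members past the threshold held under 14 of 16 alternatives; it was 4 with the replicate block (Egln1, Ero1a, P4ha1 and P4ha2) and 28 without control replicate 3. Leaving out single arrays gave 0 to 28 members, 0 to 7 related genes and 31 to 253 genes in all. The related genes numbered 1 with the replicate block. The count over all genes, 94, was 51 with no filter, 12 with no intensity trend, 61 with the mean of probe sets and 123 with the replicate block. Deviations of same-numbered arrays correlated at -0.12, -0.14 and 0.24 across genes for replicates 1, 2 and 3. The labels do not say whether same-numbered arrays were handled together, and these values do not settle it. Tardbp, at -0.85, had a limma adjusted p of 0.0608 with no intensity trend and of 7.69e-04 to 0.0163 otherwise. The median over the members stayed between 0.33 and 0.79. Of 36 members 3 changed sign, none past the threshold: Hk1 to -0.051 without control replicate 1 and -0.018 without TDP-43 siRNA replicate 3 (0.25 at most), Ldhb to -0.046 without control replicate 3 and -0.039 without TDP-43 siRNA replicate 1 (0.10 at most), and Ndrg1 to -0.12 and -0.066 without control replicates 1 and 2 and -0.058 without TDP-43 siRNA replicate 3 (0.21 at most). Slc25a11 ran from -0.085 to 0.025, above 0 without control replicate 1. The causes were not tested. Signals near the pseudocount, as for Ppp1r3c, limit the size of a difference.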
